A study of Ambystoma mexicanum with 198 samples.

Results

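Forelimb tips of the axolotl (*Ambystoma mexicanum*) collected 18 days post amputation (dpa) were compared with forelimb tips collected at 10 dpa. Samples were taken by their time label alone, which gave 10 arrays at 18 dpa and 10 arrays at 10 dpa, together 10.1% of the arrays in the series. Limbs of both groups were amputated with a razor blade through the mid zeugopod, the segment that holds the radius and ulna, and the bones were not trimmed back. Animals of both groups came from the same stock center, measured 5 to 8 cm from snout to vent, were 6 to 10 months old and were kept at 17 to 18C. The study says that its animals varied in body size and came from different crosses, without giving the cross of each sample. Each array held RNA of the distal 1 mm of a limb, a mix of epidermis, muscle, skeleton, nerve, vessels and blastema. Blastema is the mound of undifferentiated cells that rebuilds the limb. By the study's account, later tips held a larger share of regenerated tissue and early tips a larger share of stump tissue. The study scored limbs at 18 dpa as medium bud (cone-shaped) or late bud (flattened cone) and limbs at 10 dpa as early bud. It does not say which limbs shared an animal, so p-values measure the spread between these samples. In each group, 5 samples carried a code that starts with A and 5 carried a code that starts with E or F (A-coded and EF-coded below). The sources used here do not explain these letters, and the split is the same at both times.

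In a regenerating salamander limb, old tissue near the cut is broken down while a blastema gathers beneath the wound epidermis. Osteoclasts, the multinucleate cells that resorb bone, and macrophages, the phagocytes that clear debris, take part in the breakdown. The bud then grows by cell division, and its inner cells condense and secrete cartilage matrix, which forms the template of the new skeleton. Limb buds of vertebrate embryos grow under signals of the fibroblast growth factor (FGF), WNT and hedgehog families, and transcription factors of the LIM-homeobox, T-box and HOX families mark their position along the limb.

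Values are log2 intensities of the Affymetrix probe sets of the chip, called probes here, so a difference of 1 is 2-fold. Of 20,080 probes, 45 controls were left out and 20,035 were tested with limma. A probe was called when its adjusted p was under 0.05 and its difference was at least 0.58, or 1.5-fold. A gene symbol was given for 10,951 probes, which cover 8639 genes, and the gene lists below use 1 probe for each gene. A listed gene counts as measured where this annotation gives its symbol, and its other members were not analysed here. The 20 array medians lay between 5.73 and 5.87. Computed across probes, which are no independent replicates, r between arrays was 0.981 to 0.992 within 18 dpa and 0.976 to 0.991 within 10 dpa. The spiked hybridization controls averaged 10.94 ± 0.14 at 18 dpa and 11.08 ± 0.14 at 10 dpa (SD, n = 10 each), with an adjusted p of 0.117 in a two-sided permutation test over 5 array measures. For the other 4 measures the adjusted p ran from 0.102 to 0.789. The values hold no detection calls, so no gene is described as absent.

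Of all probes tested, 513 (2.56%) were called higher and 752 (3.75%) lower. With 1 probe for each gene, 269 genes (3.11%) were called higher and 299 (3.46%) lower, and these shares are the background for each list. The balance of the 2 directions was not stable, since 2742 probes were higher and 1805 lower with no fold threshold, and 369 were higher and 337 lower in A-coded samples alone. At least 4-fold differences were found for 16 of the higher and 60 of the lower probes. The 10 arrays of 18 dpa lay wholly above the 10 arrays of 10 dpa for 223 probes (1.11%), of which 91 were called higher, and wholly below them for 161 probes (0.804%), of which 141 were called lower. Each of the called probes had the same sign of difference in A-coded and in EF-coded samples. The calls rest on these same samples, so a shared sign is nearly bound to follow and is no independent evidence. In A-coded samples alone, 266 of the 513 higher and 292 of the 752 lower probes were called again. In EF-coded samples alone these counts were 364 and 646. Of 253 symbols with several probes and a call, 26 had every probe called the same way and 7 had probes called in both directions, so a call often rests on a single probe of its gene. A symbol was lacking for 205 of the higher and 332 of the lower probes, which are not described further.

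**Figure D1:**
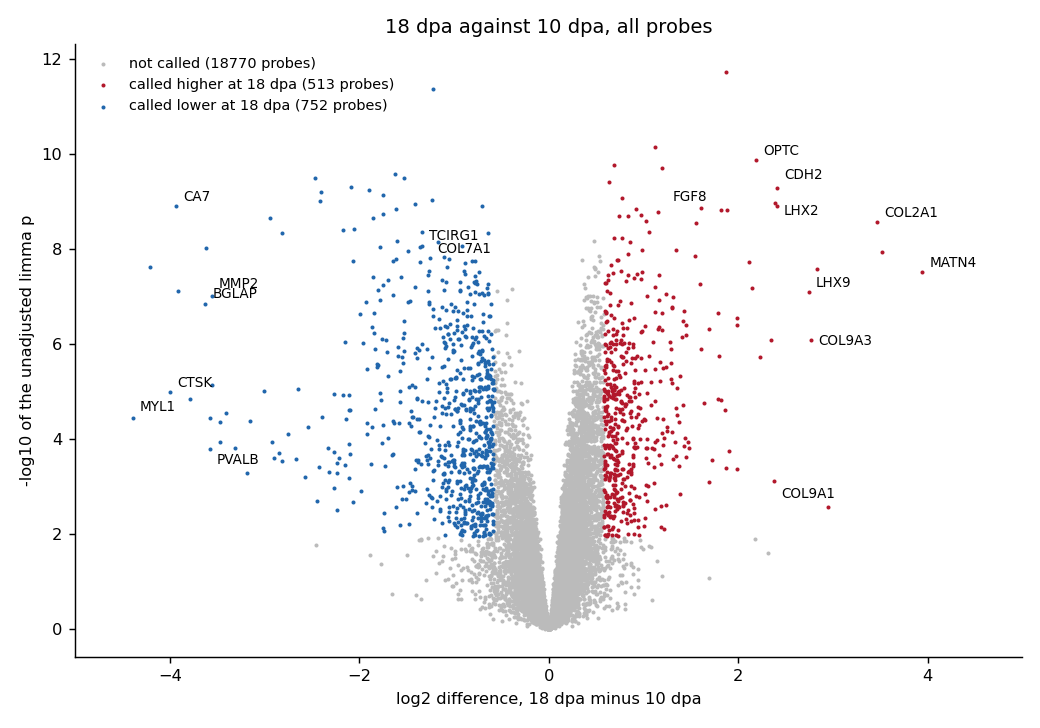
Log2 difference (18 dpa minus 10 dpa, horizontal) against the −log10 of the unadjusted limma p (vertical) for all 20,035 probes. The 513 called higher are at the right and the 752 called lower at the left, which reaches −4.39 for *MYL1* where the right side reaches 3.94 for *MATN4*.

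The 2 largest increases among named genes were those of cartilage matrix genes. *COL2A1*, the main fibrillar collagen of cartilage, had a lowest, median and highest level of 8.51, 9.94 and 11.24 at 18 dpa, against 5.02, 6.31 and 7.93 at 10 dpa. The groups did not overlap, and the difference was 3.46 ± 0.35 (SE, limma adjusted p = 1.47e-06). *MATN4*, a matrilin that links matrix fibrils, had 8.21, 9.88 and 11.79 at 18 dpa, against 4.00, 5.99 and 8.23 at 10 dpa, a difference of 3.94 ± 0.46. Its groups touched at their ends, where the lowest array of 18 dpa lay just under the highest of 10 dpa. The 3 chains of type IX collagen, which coats type II fibrils, rose as well. *COL9A3* averaged 8.24 ± 1.17 at 18 dpa and 5.47 ± 0.66 at 10 dpa (SD, n = 10 each), and *COL9A2* averaged 8.38 ± 0.93 at 18 dpa and 6.53 ± 0.69 at 10 dpa. *COL9A1* was the most uneven of the 3, with 5.40, 8.22 and 11.19 at 18 dpa against 4.43, 6.08 and 7.24 at 10 dpa. Its increase of 2.38 passed the test (adjusted p = 0.00666) although the groups overlapped widely.

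Of 22 cartilage genes measured, 9 were called higher, 1 was called lower and 12 were not called, with a median difference of 0.24 (0.02 over all 8639 genes). The other members called higher were *EPYC* (1.22), *CILP* (0.89), *UCMA* (0.86) and *OGN* (0.78), all of which code for secreted proteins of cartilage or other connective tissue. *ACAN*, the core protein of aggrecan, went the other way, at 7.66 ± 0.58 at 18 dpa and 8.76 ± 0.71 at 10 dpa (adjusted p = 0.00514). The call of *ACAN* was lost in A-coded samples alone and in the methods' t-test at a p of 0.001. *SOX9*, the transcription factor of cartilage precursors, differed by −0.06 (adjusted p = 0.507) on its probe. The mean level over the cartilage list ran from 6.61 to 7.63 at 18 dpa and from 6.12 to 6.85 at 10 dpa. In a bulk sample, fewer cells of a type and less RNA per cell cannot be told apart, and the same holds for more. Muscle, osteoclast and macrophage markers also differed between these samples, as given below, and their part in the cartilage differences was not tested.

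The array with the highest level at 18 dpa was the same for most of these genes. Replicate 2 was highest for *COL2A1*, *MATN4*, *COL9A1* and *COL9A3*, and replicate 8 was lowest for *COL2A1*, *MATN4* and *COL9A3*. Over all 513 probes called higher, replicate 8 was the lowest array of 18 dpa for 26.5%, against 10.5% of all probes tested. At 10 dpa, replicate 9 was the highest array for 30.8% of the same probes, against 12.6% of all probes.

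*CDH2*, which codes for N-cadherin, an adhesion molecule of condensing mesenchyme, had 6.59, 7.31 and 8.56 at 18 dpa, against 4.25, 4.95 and 5.84 at 10 dpa. The groups did not overlap, and the increase of 2.40 ± 0.22 was seen in EF-coded (2.33) and A-coded (2.48) samples alike. Its other probe was dim and differed by 0.01. *COL2A1* also had a second probe without a call (difference 0.12), so the increases rest on 1 probe for each of these genes. *FBLN1*, a matrix glycoprotein, rose on both of its probes, by 2.39 and 1.12. *OPTC* (opticin, a small leucine-rich proteoglycan) averaged 8.60 ± 0.54 at 18 dpa and 6.41 ± 0.32 at 10 dpa, with no overlap. *MGP*, an inhibitor of calcification, averaged 10.56 ± 1.14 at 18 dpa and 8.66 ± 0.83 at 10 dpa, with overlap.

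Of 26 limb patterning genes measured, 5 were called higher, 1 lower and 20 were not called, with a median difference of 0.03. *LHX2* had 7.06, 8.15 and 9.01 at 18 dpa, against 4.83, 5.76 and 6.44 at 10 dpa, and *LHX9* had 5.57, 7.46 and 8.85 at 18 dpa, against 3.79, 4.61 and 5.50 at 10 dpa. Both are LIM-homeobox factors expressed beneath the apical ridge of chick and mouse limb buds. Neither gene overlapped between the groups, although the lowest array of 18 dpa exceeded the highest of 10 dpa for *LHX9* by little. The differences were 2.41 ± 0.23 for *LHX2* and 2.74 ± 0.34 for *LHX9*. *TBX5*, the T-box gene of forelimb identity, rose by 1.30 ± 0.26 on its brighter probe and by 1.11 on the other. *DLX6*, a distal-less homeobox gene, averaged 8.20 ± 0.45 at 18 dpa and 7.18 ± 0.64 at 10 dpa, with overlap. The remaining calls, *HOXA13* and *SALL4*, were named here after their values were seen. *HOXA13*, the HOX gene of the hand and foot, averaged 4.01 ± 0.46 at 18 dpa and 3.19 ± 0.12 at 10 dpa without overlap. Both means lay near the low end of the scale, where the lowest value of the 20 arrays was 2.70. *SALL4*, a zinc-finger factor, fell by 0.75.

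FGF signaling genes called at 18 dpa were a ligand, a feedback inhibitor and a receptor partner. *FGF8*, a ligand of the apical ridge in chick and mouse, had 5.49, 6.00 and 7.07 at 18 dpa, against 3.96, 4.19 and 4.95 at 10 dpa. *SPRY1*, which damps signaling below FGF receptors, had 7.47, 7.96 and 8.52 at 18 dpa, against 5.90, 6.20 and 6.90 at 10 dpa. *FLRT3*, a membrane protein that binds FGF receptors, had 7.99, 8.99 and 9.65 at 18 dpa, against 5.64, 6.97 and 7.58 at 10 dpa. The groups did not overlap for any of the 3, with differences of 1.88 ± 0.18, 1.61 ± 0.16 and 2.11 ± 0.24 and limma adjusted p of 1.09e-06, 1.09e-06 and 4.92e-06. The other 16 of 19 members measured were not called, and the list had a median difference of 0.17. *FGF2* and *FGF13*, both named for the FGF family, differed by 0.57 each with adjusted p of 0.0349 and 0.00342, just under the 1.5-fold threshold. With 18 dpa replicate 1, 4 or 8 or 10 dpa replicate 2 left out, 5 members passed in place of 3. *FGF10*, the mesenchymal ligand of the early limb bud, differed by 0.17 (adjusted p = 0.127).

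In the hedgehog and retinoid list, 2 of 23 members were called higher and 2 lower, with a median difference of −0.03. *GLI3*, a transcription factor of hedgehog signaling, had 7.53, 8.25 and 8.78 at 18 dpa, against 6.18, 6.73 and 7.39 at 10 dpa, with no overlap and a difference of 1.54 ± 0.17. *DISP1*, which releases hedgehog ligands, differed by 0.58 ± 0.10, at the fold threshold, and 11 of the 20 arrays, each left out alone, took its call away. The 2 genes called lower act on retinoids. *RBP4*, the carrier of retinol, averaged 5.22 ± 0.34 at 18 dpa and 7.02 ± 0.89 at 10 dpa with no overlap, and *ALDH1A3*, which makes retinoic acid, averaged 8.55 ± 0.89 at 18 dpa and 9.84 ± 0.73 at 10 dpa with overlap. The decrease of *RBP4* was seen on 1 of its 2 probes (the other differed by −0.26, adjusted p = 0.797).

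WNT signaling genes moved in both directions, with 6 of 37 called higher, 2 lower and a median difference of 0.01. Secreted or membrane-bound inhibitors were among the calls of each direction. *WIF1*, which binds WNT ligands, averaged 4.70 ± 0.50 at 18 dpa and 3.60 ± 0.16 at 10 dpa with no overlap. *APCDD1*, a membrane inhibitor, rose by 0.81 and *DKK2*, a dickkopf family member, by 0.80. *DKK3*, of the same family, fell by 1.83, with 5.59, 6.57 and 7.56 at 18 dpa against 7.59, 8.57 and 9.06 at 10 dpa on the brighter of its 2 probes (the other differed by 0.14). The receptors *FZD2*, *LGR4* and *ROR2* rose by 0.62, 0.64 and 0.66, and the ligand *WNT2B* fell by 0.77. These 4 were named after their values were seen. Of 39 genes of TGF-beta and BMP signaling, 1 was called higher and 3 lower (median −0.06). *ID3*, a target of BMP signals, rose by 0.77, the receptor *TGFBR2* fell by 1.09 on its brighter probe (the other differed by 0.45, adjusted p = 0.0164), and the ligand *TGFB1* and the latency protein *LTBP3* differed by −0.67 and −0.63. The call of *TGFB1* was lost when 7 of the arrays were left out in turn, and that of *LTBP3* when 18 dpa replicate 5 or 10 dpa replicate 1 was left out, with a difference of −0.55 at the smallest.

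**Figure D2:**
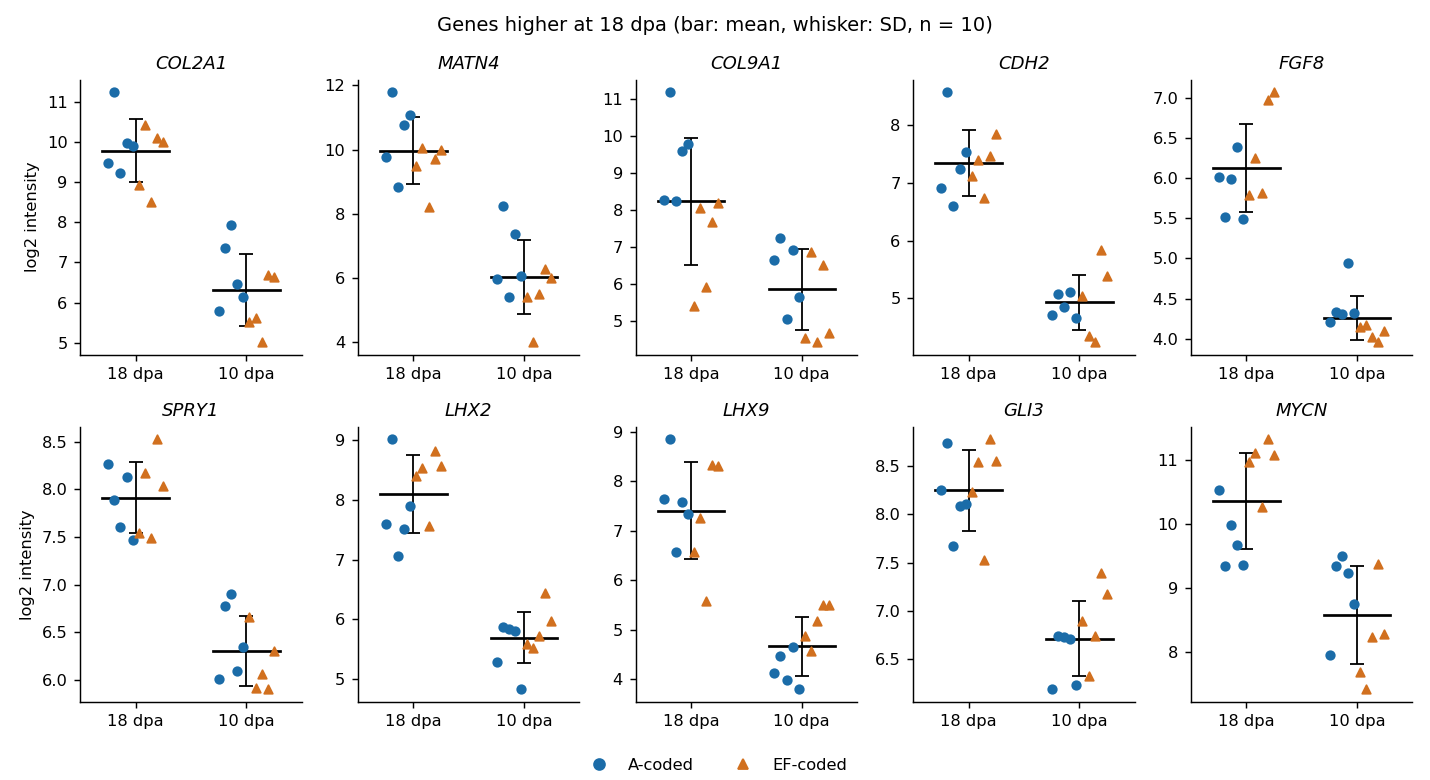
Log2 intensity of 10 genes higher at 18 dpa, with each array as a point (18 dpa left, 10 dpa right; A-coded as circles, EF-coded as triangles), the mean as a bar and the SD as a whisker. The groups are apart for *COL2A1*, *CDH2*, *FGF8*, *SPRY1*, *LHX2*, *LHX9* and *GLI3* and overlap for *MATN4*, *COL9A1* and *MYCN*.

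Several of the largest increases fell outside the lists. *ENPP2*, which codes for autotaxin, the enzyme that makes lysophosphatidic acid, averaged 8.86 ± 0.78 at 18 dpa and 6.03 ± 0.79 at 10 dpa, without overlap, although the lowest array of 18 dpa and the highest of 10 dpa both round to 7.60. *DPP6*, an accessory subunit of potassium channels, averaged 5.92 ± 0.85 at 18 dpa and 3.93 ± 0.36 at 10 dpa, on 1 of 3 probes. *RLBP1*, a retinaldehyde-binding protein, had 5.17, 6.82 and 8.08 at 18 dpa, against a narrow 4.33, 4.54 and 4.87 at 10 dpa. *TYRP1*, an enzyme of pigment cells, had 6.07, 8.02 and 9.63 at 18 dpa, against 4.86, 5.69 and 8.02 at 10 dpa, and its groups overlapped. *MYCN*, a MYC family factor counted in the ribosome biogenesis list, averaged 10.36 ± 0.75 at 18 dpa and 8.58 ± 0.76 at 10 dpa. Its difference was 2.75 in EF-coded and 0.82 in A-coded samples, and the test of that disparity gave an adjusted p of 0.251.

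Genes of DNA replication were raised as a group, by small amounts each. Of 50 measured, 21 were called higher and 29 were not called. Every one of the 50 differences was positive, between 0.02 and 1.35, with a median of 0.49 (0.02 over all genes). *MCM5*, a subunit of the replicative helicase, had 7.87, 9.08 and 9.41 at 18 dpa, against 5.88, 8.01 and 8.40 at 10 dpa. *MCM3*, of the same complex, averaged 10.68 ± 0.28 at 18 dpa and 9.73 ± 0.47 at 10 dpa. *GMNN*, which prevents a second round of replication, rose by 1.15, and *CDC6*, which loads the helicase, by 1.02. Each of these 4 overlapped between the groups. *PCNA*, the sliding clamp, averaged 12.43 ± 0.20 at 18 dpa and 11.77 ± 0.27 at 10 dpa.

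The list mean ran from 8.62 to 9.08 at 18 dpa and from 8.08 to 8.70 at 10 dpa. Its lower end at 10 dpa lay among EF-coded samples (8.08 to 8.45), against 8.29 to 8.70 in A-coded samples of that time. The number called was 23 of 50 in EF-coded samples alone and 4 of 50 in A-coded samples alone. For *MCM5* the difference was 2.16 in EF-coded and 0.54 in A-coded samples, and their disparity had an adjusted p of 0.309. Genes of mitosis had a smaller median difference. Of 68 measured, 10 were called higher and 58 were not called, with 62 positive differences and a median of 0.39. *KIF2C*, a kinesin of the centromere, had 7.77, 8.16 and 8.44 at 18 dpa, against 6.91, 7.30 and 7.65 at 10 dpa, with no overlap. *CDC25A*, a phosphatase that drives the cycle, rose by 0.79, and *NCAPD3* and *MIS12*, of condensin and the kinetochore, rose by 0.68 each. The count of 10 was 6 when 18 dpa replicate 4, 10 dpa replicate 6 or 10 dpa replicate 10 was left out, and 6 after a second quantile normalization. It was 17 in EF-coded and 6 in A-coded samples alone, and 5 without 10 dpa replicates 2, 6 and 7.

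Matrix genes other than those of cartilage divided. Of 18 genes of basement membrane and collagen VI, 6 were called higher and 12 were not called (median 0.13). *COL6A1*, *COL6A2* and *COL6A3*, the chains of collagen VI, rose by 0.97, 0.84 and 0.66, *COL4A5* and *COL4A6* by 0.74 and 0.69, and *NID2* (nidogen) by 0.85. The other probe of *COL6A1* differed by 0.15 without a call. *COL4A1* and *COL4A2*, the chains found in most basement membranes, each differed by −0.04. Of 37 interstitial matrix genes, 3 were called higher and 4 lower (median −0.17). *FN1*, which codes for fibronectin, averaged 9.75 ± 0.78 at 18 dpa and 11.21 ± 0.49 at 10 dpa, and both of its probes fell. *COL7A1*, the collagen of anchoring fibrils, fell on all 3 of its probes and averaged 10.68 ± 0.30 at 18 dpa and 11.93 ± 0.36 at 10 dpa, with no overlap. *PLOD2*, a lysyl hydroxylase of collagen, had 6.93, 7.54 and 7.99 at 18 dpa, against 8.10, 9.15 and 9.60 at 10 dpa. *COL1A1* and *COL1A2*, the chains of type I collagen, differed by 0.08 and 0.04.

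Of 21 metalloproteinases, related enzymes and inhibitors, 1 was called higher, 5 were called lower and 15 were not called (median −0.12). *MMP2* (gelatinase A) had 7.93, 8.90 and 11.47 at 18 dpa, against 11.99, 13.09 and 13.85 at 10 dpa, on its brighter probe. The groups did not overlap and the difference was −3.56 ± 0.45. Its other probe was called the other way, at 10.72 at 18 dpa and 9.99 at 10 dpa, so the direction of *MMP2* is uncertain. It is among the 7 symbols with calls in both directions. *MMP14*, a membrane-bound activator of other metalloproteinases, fell by 1.07, and *FAP*, a serine protease of activated fibroblasts, fell by 1.01 without overlap. *MMP16* rose by 0.91. *MMP9* differed by −0.03 (adjusted p = 0.87).

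**Figure D3:**
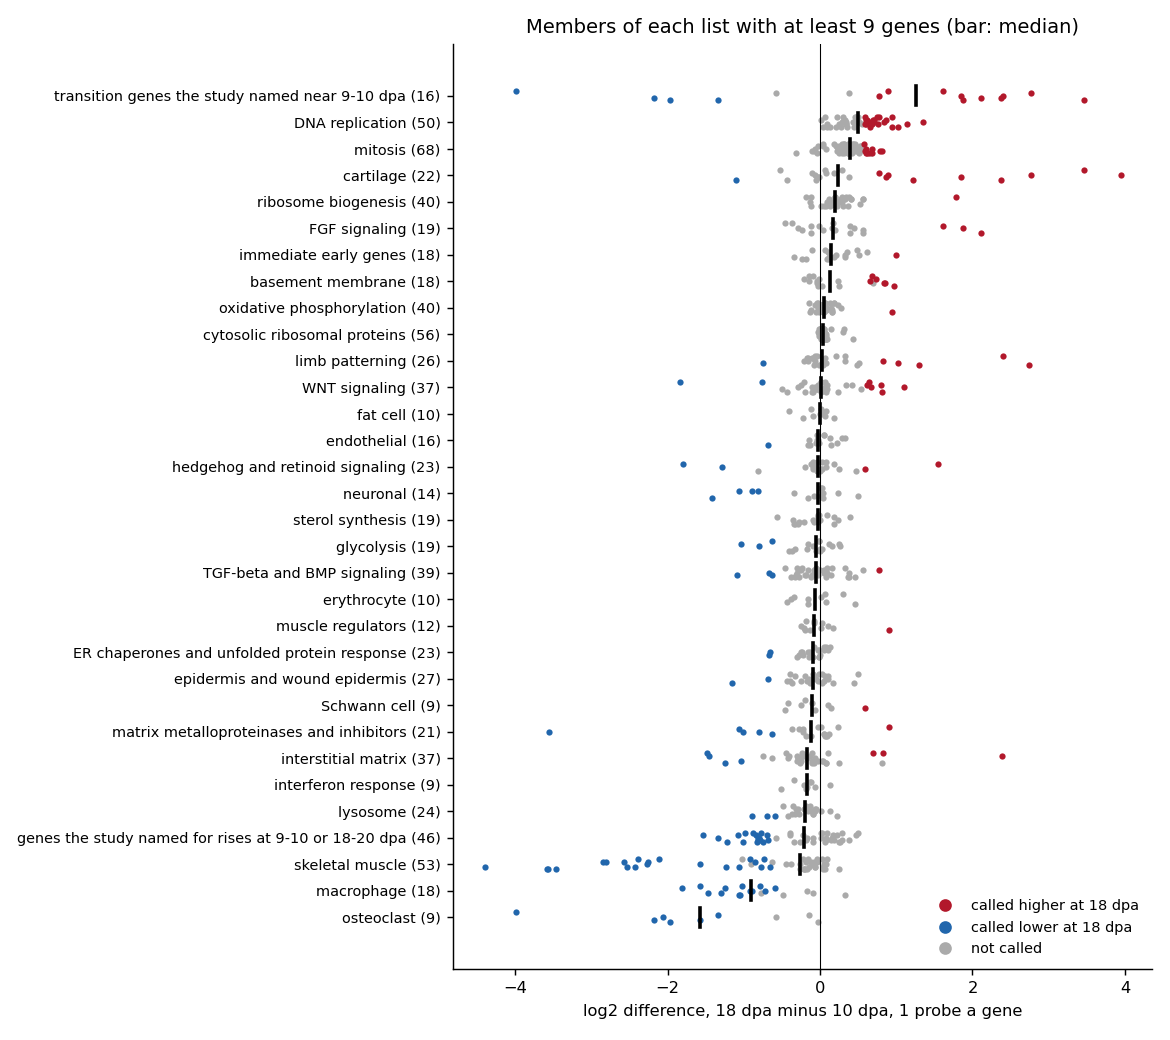
Log2 difference (18 dpa minus 10 dpa, horizontal) of each member of the lists with at least 9 genes measured (rows, with the number measured), where red points were called higher, blue points lower and grey points not called, and a bar is the list's median. The replication list lies to the right of 0 as a whole (median 0.49), and the osteoclast (−1.57) and macrophage (−0.91) lists have their medians farthest to the left.

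Among the 15 largest decreases of named genes were several genes of skeletal muscle, whose level at 10 dpa varied greatly between arrays. *MYL1*, a light chain of fast myosin, had 3.50, 3.91 and 5.10 at 18 dpa, against 3.79, 8.80 and 13.42 at 10 dpa. The 18 dpa arrays lay in a narrow band at the foot of the range of 10 dpa. *TTN*, the giant spring of the sarcomere, had 3.52, 3.86 and 6.39 at 18 dpa, against 3.83, 8.08 and 11.28 at 10 dpa. *CKM*, the creatine kinase of muscle, had 4.35, 4.77 and 5.21 at 18 dpa, against 4.73, 7.31 and 12.30 at 10 dpa. In each of the 3 genes the groups overlapped, and the differences were −4.39 ± 0.84, −3.47 ± 0.73 and −2.85 ± 0.63 (limma adjusted p of 0.000696, 0.0016 and 0.00247). Further differences were −3.58 for *PVALB* (parvalbumin, a calcium buffer of fast fibers), −3.57 and −2.81 for *TNNI2* and *TNNC2* (fast troponin subunits), −3.19 for *TPM1* (tropomyosin), −2.75 for *ACTC1* (an alpha-actin) and −2.58 for *MYL3* (a slow and cardiac light chain), all called. The call holds for 1 of 3 probes of *ACTC1*, 1 of 4 of *TPM1*, 1 of 2 of *MYL1*, 2 of 4 of *PVALB* and 2 of 5 of *TTN*. *ANKRD1*, a titin-binding protein of muscle, averaged 4.82 ± 0.65 at 18 dpa and 8.61 ± 2.18 at 10 dpa.

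Of 53 skeletal muscle genes measured, 21 were called lower and 32 were not called, with a median difference of −0.27. The 21 called genes had a median SD of 0.27 at 18 dpa and 1.69 at 10 dpa, and each had the smaller SD at 18 dpa. They were called for being higher at 10 dpa, so their SDs and levels there are not independent of that choice. The mean over all 53 genes had an SD of 0.08 at 18 dpa and 0.74 at 10 dpa. Over all probes the median SD was 0.18 at 18 dpa and 0.19 at 10 dpa. Several of the 21 genes lay near the low end of the scale at 18 dpa, such as *MYL1* at a mean of 3.98 and *TNNI2* at 3.85. RMA, the authors' normalization, compresses low levels, and its part in the small SD at 18 dpa was not tested. The mean level over the list ran from 4.55 to 4.86 at 18 dpa and from 4.61 to 7.24 at 10 dpa. At 10 dpa, replicate 2 stood highest (7.24), the EF-coded samples lay between 5.42 and 6.08, and the A-coded replicates 3 (4.61) and 5 (4.80) lay within the range of 18 dpa. In replicate 3 of 10 dpa, 1 of the 21 called genes exceeded all arrays of 18 dpa, against 16 to 21 of them in the 8 arrays of 10 dpa other than replicates 3 and 5. The number called was 21 of 53 in EF-coded samples alone and 1 of 53 in A-coded samples alone. The methods' t-test, which unlike limma allows a different SD in each group, called 17 at a p of 0.01 and 6 at a p of 0.001. Without the 3 arrays of 10 dpa with the highest level (replicates 2, 6 and 7), 16 were called. *ENO3*, the muscle enolase, was the only member of the 21 whose groups did not overlap (11.18 ± 0.21 at 18 dpa and 11.84 ± 0.26 at 10 dpa). *RYR1*, the calcium release channel, and *DES* (desmin) differed by 0.08 and 0.25 without a call. Among 12 regulators of muscle formation, *CDH15* (M-cadherin of muscle precursors) rose by 0.90 and the other 11 were not called, *MYF5* among them (−0.08).

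Most osteoclast genes fell, with 6 of 9 called lower and a median difference of −1.57. *CTSK*, the collagen-cutting protease of osteoclasts, had 5.03, 7.59 and 11.15 at 18 dpa, against 10.95, 12.07 and 13.14 at 10 dpa. Here the spread was larger at 18 dpa (SD 2.25) than at 10 dpa (SD 0.64), the reverse of the muscle genes, and the groups overlapped at the ends. The difference was −4.00 ± 0.69, made up of −2.77 in EF-coded and −5.22 in A-coded samples, a disparity with an adjusted p of 0.542. *TCIRG1*, the osteoclast subunit of the proton pump, had 8.57, 8.93 and 9.44 at 18 dpa, against 9.77, 10.30 and 10.95 at 10 dpa, and *CKB*, a creatine kinase abundant in osteoclasts, had 10.48, 11.08 and 12.38 at 18 dpa, against 12.72, 13.42 and 14.12 at 10 dpa. Neither gene overlapped, with differences of −1.34 ± 0.14 and −2.07 ± 0.23. The remaining calls were *CALB1*, a calcium-binding protein (−2.17), *ACP5*, the tartrate-resistant phosphatase (−1.96), and *NFATC1*, the transcription factor of osteoclast formation (−1.57). *OSTM1*, a partner of the lysosomal chloride channel, differed by −0.57, just short of the fold threshold (adjusted p = 0.000206), and *CLCN7*, the channel itself, by −0.15. *MMP9*, a metalloproteinase also in this list, differed by −0.03 without a call. The list mean ran from 6.58 to 7.98 at 18 dpa and from 8.11 to 9.43 at 10 dpa, with no overlap.

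*CA7*, a carbonic anhydrase, was not in a list and fell by 3.94 ± 0.38, with 4.32, 6.34 and 7.93 at 18 dpa against 9.47, 10.23 and 11.21 at 10 dpa. *PLBD1*, a phospholipase-like protein of lysosomes, fell by 3.56 ± 0.60 with overlap. *BGLAP*, which codes for osteocalcin of mineralizing bone, had 4.17, 5.03 and 6.10 at 18 dpa, against 6.58, 8.89 and 10.27 at 10 dpa. The groups did not overlap, and the difference of −3.63 ± 0.47 was close to equal in EF-coded (−3.86) and A-coded (−3.40) samples. Of 8 bone genes measured, *BGLAP* was the only call downward. *ENPP1*, which makes the mineralization inhibitor pyrophosphate, rose by 0.68, and *SP7*, the osteoblast transcription factor, differed by −0.18 (adjusted p = 0.143).

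Most macrophage genes fell, with 13 of 18 called lower and a median difference of −0.91. *CSF1R*, the receptor that macrophages need to survive, had 5.61, 6.22 and 7.84 at 18 dpa, against 6.72, 8.00 and 9.25 at 10 dpa. *LAPTM5*, a lysosomal protein of blood cells, had 5.58, 7.07 and 7.91 at 18 dpa, against 8.03, 8.80 and 9.38 at 10 dpa. The groups overlapped for *CSF1R* and did not for *LAPTM5*, with differences of −1.58 ± 0.31 and −1.81 ± 0.28. The call of *CSF1R* held for 1 of its 2 probes, and the other differed by −0.17. *HMOX1*, which degrades heme, differed by −1.47, and *NCF1*, of the phagocyte oxidase, by −1.29, both called. *GPNMB*, a glycoprotein of lipid-laden macrophages, differed by 0.33 without a call. The number called was 13 of 18 in EF-coded samples alone and 4 of 18 in A-coded samples alone. *LYZ* (lysozyme), the only one of 21 listed neutrophil genes with a symbol in the annotation used, averaged 11.86 ± 0.73 at 18 dpa and 13.43 ± 0.43 at 10 dpa. Of 5 lymphocyte genes, *CD74*, the chaperone of MHC class II, differed by −0.86 (adjusted p = 0.0308), a call that 8 of the arrays, each left out alone, took away. The other lymphocyte genes were not called, with differences of −0.24 for *CD247*, −0.09 for *GZMA*, −0.05 for *IL7R* and −0.02 for *CD79A*, which code for a T cell receptor subunit, a killer cell protease, a cytokine receptor and a B cell receptor subunit.

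**Figure D4:**
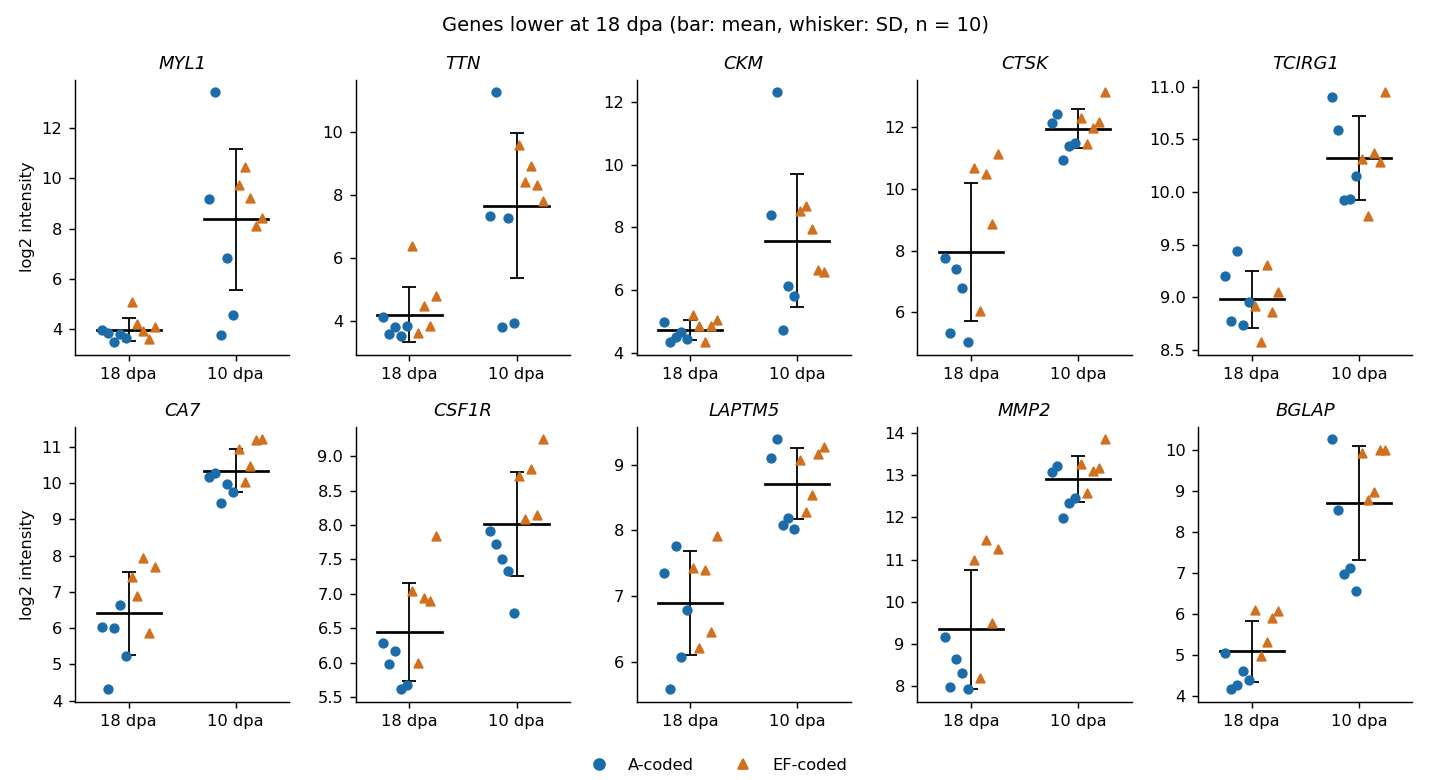
Log2 intensity of 10 genes lower at 18 dpa, with each array as a point (18 dpa left, 10 dpa right; A-coded as circles, EF-coded as triangles), the mean as a bar and the SD as a whisker. The muscle genes *MYL1*, *TTN* and *CKM* spread widely at 10 dpa (SD 2.81, 2.32 and 2.12), whereas *CTSK* and *MMP2* spread more at 18 dpa (SD 2.25 and 1.40). *MMP2* is shown on its brighter probe, and its other probe was called higher at 18 dpa.

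Most markers of the other tissues in the tip were not called, though the shares called lower were above the 3.46% background for neuronal, epidermal and endothelial genes. In lists of this size a single call already passes that background. The epidermal and endothelial shares are therefore not read as results about those tissues. Of 27 genes of epidermis and wound epidermis, 25 were not called and 2 were called lower (median −0.09). *TGM1*, the cross-linking enzyme of cornified skin, averaged 10.77 ± 0.76 at 18 dpa and 11.93 ± 0.89 at 10 dpa, and *COL17A1*, which anchors basal cells, averaged 12.71 ± 0.43 at 18 dpa and 13.39 ± 0.32 at 10 dpa. Among 14 neuronal genes 4 were called lower, a larger share than the 3.46% called lower over all genes. *CHGA* and *SCG2*, granins of secretory vesicles, fell by 1.41 and 1.06, *VGF*, a neuropeptide precursor, by 0.90, and *MAP1B*, a microtubule protein of growing axons, by 0.81. The call held for 1 of 2 probes of *CHGA* (the other differed by −0.06) and for 1 of 4 probes of *MAP1B*. The other 10 neuronal genes were not called. Of the 14 differences 7 were positive, and the list had a median of −0.03. *NGFR*, the neurotrophin receptor of Schwann cells, differed by 0.59, and 7 of the arrays, each left out alone, took its call away. *LYVE1*, of lymphatic vessels, fell by 0.68, a call lost in A-coded samples alone and in the methods' t-test at a p of 0.001. It was also lost without 10 dpa replicates 2, 6 and 7. The other 15 of 16 endothelial genes were not called. None of 10 erythrocyte genes and none of 10 fat cell genes were called by limma or by the methods' t-test, with 5 and 2 of them at an unadjusted limma p under 0.05. With no fold threshold, 4547 of 20,035 probes passed even the adjusted p, so such unadjusted values were common. The erythrocyte list has 25 genes, and no globin among them has a symbol in the annotation used, so its main markers are missing from this count.

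Genes of metabolism and general upkeep were also mostly uncalled. The shares called lower were above the 3.46% of all genes for glycolysis (3 of 19), lysosome (3 of 24) and endoplasmic reticulum chaperone genes (2 of 23). These lists are small enough that a single call already passes that share, so the shares are not read as results. *PFKP* (phosphofructokinase) had 8.00, 8.72 and 9.06 at 18 dpa, against 9.27, 9.64 and 10.45 at 10 dpa, and fell on both of its probes. It was 1 of 3 glycolysis genes called lower of 19, with *PGAM1* (a mutase), which fell by 0.63, and *SLC2A1* (the glucose transporter GLUT1), at −0.80 with a call that 7 of the arrays, each left out alone, took away. Of 56 cytosolic ribosomal protein genes, none was called by limma or the methods' t-test and 5 had an unadjusted p under 0.05, within a range of −0.03 to 0.43. Besides *MYCN*, none of 40 ribosome biogenesis genes was called, although 36 of the 40 differences were positive (median 0.20) and 27 were positive with an unadjusted limma p under 0.05. An unadjusted p under 0.05 was common over all probes, since 4547 of 20,035 passed even the adjusted p with no fold threshold. The share of all genes under that unadjusted p is not given here. Of 24 lysosome genes, 3 were called lower, with *ARSB* (a sulfatase) falling by 0.70 and *CTSS* and *CTSC* (cathepsins) at −0.90 and −0.59. Only 3 of the 24 lysosome differences were positive. At an unadjusted limma p under 0.05, 13 lysosome genes were lower and 1 higher. For the 19 glycolysis genes these counts were 7 and 2. The call of *CTSS* was lost without 18 dpa replicate 7 (−0.79) and that of *CTSC* in 7 of the omissions of an array. *DNAJB9* and *HYOU1*, chaperones of the endoplasmic reticulum, fell by 0.66 each, the only calls among 23 such genes. *EGR1*, an immediate early transcription factor, differed by 1.00 and *NDUFB1*, of respiratory complex I, by 0.94, with calls lost in 7 and 11 omissions. In the interferon and sterol lists, of 9 and 19 genes, none was called by limma or the methods' t-test, and 1 and 2 had an unadjusted p under 0.05.

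The study picked 2 sets of genes from the time course of this series, so their directions here are not independent evidence. Of 16 measured genes that it named around the turn from 9 to 10 dpa, 10 were called higher and 4 lower, with a median difference of 1.25. The genes called higher were *FGF8*, *SPRY1*, *FLRT3*, *CDH2* and 6 of the cartilage genes above, and those called lower were *CTSK*, *CALB1*, *ACP5* and *TCIRG1*. *CHODL* (chondrolectin) and *OSTM1* passed the adjusted p but not the fold threshold, at 0.39 and −0.57. Of 46 measured genes that it named for rises at 9 to 10 or 18 to 20 dpa, 17 were called lower and 29 were not called (median −0.21). For several of them, *TCF3* and *GOLM1* included, the study itself describes falling average levels after 10 dpa through day 20. *PHF6*, a chromatin protein, fell by 1.54 on 1 probe and differed by 0.31 on the other (adjusted p = 0.00888), and *TCF3*, an E-protein transcription factor, by 1.33 without overlap, also on 1 of 2 probes. *EFNA1*, an ephrin ligand, fell by 1.23, and *GOLM1*, a Golgi membrane protein, averaged 5.72 ± 0.18 at 18 dpa and 6.79 ± 0.36 at 10 dpa, with no overlap.

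Arrays of 12, 14 and 16 dpa, which the comparison did not use, showed mostly the same directions. A straight line over these 29 arrays, with the code series as a covariate, had a positive slope for 546 probes (2.73%) and a negative slope for 229 (1.14%) at an adjusted p under 0.05. Of the probes called higher at 18 dpa, 145 of 513 (28.3%) were among the positive slopes and none among the negative ones, and 483 had a positive slope of any size. Of the probes called lower, 133 of 752 (17.7%) were among the negative slopes and none among the positive ones, and 741 had a negative slope of any size. Over all 20,035 probes, 10,295 had a positive slope of any size. *SPRY1* averaged 6.30, 6.46, 6.85, 7.40 and 7.91 at 10, 12, 14, 16 and 18 dpa, and *FGF8* averaged 4.25, 4.64, 5.40, 5.94 and 6.13, with adjusted p of the slope of 0.00032 and 0.0016. *COL2A1* averaged 6.32, 6.83, 8.02, 8.64 and 9.78 over the same times (0.034), while *COL9A1* averaged 5.86, 6.11, 6.41, 6.30 and 8.24 and had no slope from 12 to 16 dpa (0.95). *MMP2*, on its brighter probe, and *CA7* had negative slopes (0.019 and 0.005). The other probe of *MMP2* was called higher at 18 dpa, so its direction stays uncertain. *CTSK* averaged 11.95, 11.84, 11.33, 9.75 and 7.95 with a slope that did not pass (0.083).

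List means were also followed over the 5 times. The osteoclast list mean was 8.68, 8.64, 8.34, 7.63 and 7.13 at 10, 12, 14, 16 and 18 dpa, and 3 of its 9 members had a called negative slope. The skeletal muscle list mean was 5.63, 5.58, 5.31, 4.78 and 4.68, with 1 called slope among 53. The replication list mean was 8.40, 8.59, 8.69, 8.76 and 8.92, with 9 called positive slopes among 50, and the mitosis list mean was 7.79, 7.79, 8.08, 8.08 and 8.15, with 15 among 68. The limb patterning list had 3 called positive slopes among 26 and a mean of 5.07, 5.14, 5.27, 5.31 and 5.40.

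**Figure D5:**
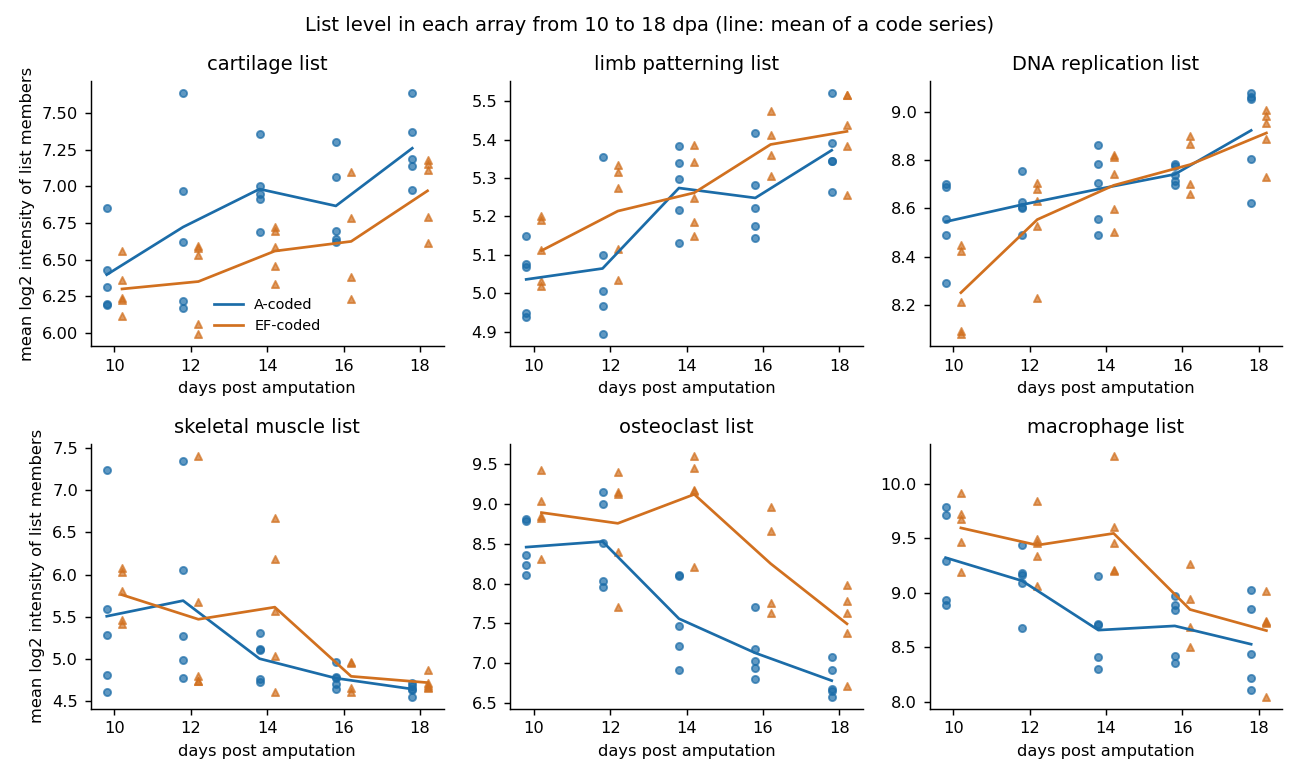
Mean log2 intensity over 6 gene lists (vertical) at 10, 12, 14, 16 and 18 dpa (horizontal), with each array as a point and a line through the mean of the A-coded (circles) and of the EF-coded (triangles) arrays. Muscle levels scatter from 4.61 to 7.24 at 10 dpa and close to a band of 4.55 to 4.86 at 18 dpa, and the osteoclast list runs from a mean of 8.68 at 10 dpa to 7.13 at 18 dpa.

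The difference between 18 and 10 dpa was then compared between the EF-coded and the A-coded samples. Of 20,035 probes, 8 (0.0399%) had an adjusted p under 0.05 for the disparity, and 1702 (8.5%) had an unadjusted p under 0.05. Of the 8 probes, 4 had no symbol and 1 of those was called in the main comparison. *MEIS2*, a homeobox gene of the upper limb in embryos, averaged 8.43 at 18 dpa and 7.43 at 10 dpa in EF-coded samples, and 8.22 at 18 dpa and 8.36 at 10 dpa in A-coded samples (n = 5 each). Its other 2 probes differed between the times by −0.10 and −0.11 without a call. *ZHX2*, a transcriptional repressor, averaged 8.19 at 18 dpa and 8.60 at 10 dpa in EF-coded samples, and 8.33 at 18 dpa and 7.73 at 10 dpa in A-coded samples. In both genes the arrays of 10 dpa divided by code without overlap, and those of 18 dpa overlapped. *B3GNT7*, a glycosyltransferase, differed by −0.81 in EF-coded samples and differed by 0.11 in A-coded samples, and *VEZT*, a protein of adherens junctions, differed by 0.47 in EF-coded and −0.08 in A-coded samples. *ERRFI1*, an inhibitor of EGF receptors and the next gene by p, averaged 6.78 at 18 dpa and 7.36 at 10 dpa in EF-coded samples and 6.51 at 18 dpa and 6.10 at 10 dpa in A-coded samples, and did not pass.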

How the data were processed

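The deposited log2 intensities were produced by the authors with RMA in Affymetrix Expression Console, per the submitters' processing notes, with no version given in the sources used here. RMA corrects background, quantile normalizes arrays and summarizes each probe set, so it evens out total signal between samples and compresses low levels. Each array's time, replicate number and code came from its labels. Every sample column was mapped (0 unmapped), and 45 Affymetrix control probes were left out.

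Time points were tested in limma 3.58.1 under R 4.3.3 with moderated statistics from the 20 arrays alone and Benjamini-Hochberg adjustment over 20,035 probes. Differences are 18 dpa minus 10 dpa. The slope over 12 to 16 dpa and the interaction of time with code series were fitted likewise. The platform annotation pairs 10,951 probes with 1 symbol each and leaves 9084 unnamed. Within a list, the brightest probe over the 20 arrays stands for its gene. Array measures were compared by permutation (100000 resamples). Python 3.11.15 and scipy 1.17.1 were used for summaries. On data simulated for this comparison over 20,035 probes, limma recovered 96% of changes of log2 0.8, 86% of 1, 94% of 1.5 and 100% of 2, with 1 false call among 19835 unchanged probes. The simulated probes varied independently and normally, with the same SD in both groups. Real probes can vary together and differ in SD between groups, as the muscle genes did. The false-call count therefore need not hold for the real arrays.

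The members and the 35 lists were chosen with earlier results of these data known. Genes were named by a rule: up to 15 largest increases and 15 largest decreases with the same sign in both code series and a call that holds with code series as a block, up to 4 called members of each list, all members where 5 or fewer were measured, the study's transition genes near 9 to 10 dpa, and up to 5 genes with the smallest interaction p. Alternatives were a fit with every array of the series, the t-test of the methods, other thresholds, leaving out probes whose mean was below the 25th percentile, other scalings, array weights, blocks, each code series alone and leaving out each array. A fit without 10 dpa replicates 2, 6 and 7 was added after seeing the data. Further list members, *ACAN*, *PCNA* and *ENO3* among them, were named outside the rule. Counts of named genes in the sections below do not cover them.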

Additional observations from a re-analysis of the deposited data

Results flagged for a closer look

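Each of the 113 genes named by the rule was examined in both groups of 10 arrays, 226 groups in all. In 12 of these groups an array stood far from its nearest neighbor for the spread of the group. By chance about 1 in 20 independent groups would pass, and 12 of 226 is close to that share. These groups share 20 arrays and are not independent. The 12 are therefore listed only, and are not read as results about these genes or arrays. Replicate 6 of 18 dpa was the high array for 4 genes expressed in muscle, *MYL1* (5.10), *ANKRD1* (6.35), *TTN* (6.39) and *MYL3* (5.38), and replicate 9 of 18 dpa for *ACTC1* (4.71). Replicate 2 of 10 dpa was the high array for *CKM* (12.30). Single arrays also stood apart for *MCM5* (7.87 in replicate 5 of 18 dpa, low), *COL4A5* (9.29 in replicate 10 of 18 dpa, low), *NDUFB1* (5.04 in replicate 2 of 18 dpa, low), *EFNA1* (4.63 in replicate 1 of 18 dpa, high), *FGF8* (4.95 in replicate 4 of 10 dpa, high) and *PFKP* (10.45 in replicate 1 of 10 dpa, high).

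The difference between 18 and 10 dpa was not the same in EF-coded and A-coded samples for 8 probes, by limma's test of the interaction. The EF-coded difference minus the A-coded difference was 1.13 for *MEIS2*, 0.56 for *VEZT*, −1.002 for *ZHX2* and −0.92 for *B3GNT7*. For 4 probes with no symbol it was 3.61, 2.44, −1.14 and −1.14.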

How the results depend on the processing

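The counts of higher and lower probes (513 and 752) moved most with the threshold. They were 130 and 307 at 2-fold, 2742 and 1805 with no fold threshold, and 44 and 90 when limma's treat tested against 1.5-fold. So more probes were lower than higher at 1.5-fold and 2-fold, and more were higher than lower with no fold threshold. In A-coded samples alone 369 were higher and 337 lower, against 572 higher and 917 lower in EF-coded samples alone. The methods' t-test at a p of 0.001 gave 365 higher and 497 lower. Leaving out each array gave 470 (without 10 dpa replicate 1) to 569 (without 10 dpa replicate 9) higher probes and 706 (without 10 dpa replicate 6) to 803 (without 10 dpa replicate 4) lower probes. With replicate number as a block the counts were 522 and 772, of which 505 and 740 were shared. Same-numbered arrays deviated together with r from −0.145 to 0.257, computed across probes without a test. These values cannot settle whether the numbers pair the samples. Without 10 dpa replicates 2, 6 and 7, chosen after seeing the data, 503 and 679 probes were called. The interaction count of 8 was 4 without dim probes, where fewer probes are tested. No gene named by the rule with a call changed sign under any alternative run. List medians near 0 did change sign between code series, such as that of sterol synthesis (0.24 in EF-coded and −0.11 in A-coded samples).

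Of 102 genes that the rule named and that had a call, 92 kept it whichever array was left out. The call was kept by 88 in EF-coded samples alone and by 53 in A-coded samples alone. Left-out arrays that took a call away, with the smallest difference reached, were 18 dpa replicates 1, 2, 4 and 7 and 10 dpa replicates 1, 2, 6 and 10 for *CD74* (−0.71). They were 18 dpa replicates 7 and 8 and 10 dpa replicates 2, 6, 8, 9 and 10 for *CTSC* (−0.52), and 18 dpa replicates 1, 2, 4, 8, 9 and 10 and 10 dpa replicates 5, 6, 7, 8 and 10 for *DISP1* (0.53). For *EGR1* (0.81) they were 18 dpa replicates 1, 3, 5 and 8 and 10 dpa replicates 3, 4 and 7, and for *NGFR* (0.53) 18 dpa replicates 2, 4 and 7 and 10 dpa replicates 4, 5, 6 and 8. For *NDUFB1* (0.78) they were 18 dpa replicates 5 to 10 and 10 dpa replicates 1, 5, 6, 7 and 10, for *SLC2A1* (−0.65) 18 dpa replicates 1, 4, 9 and 10 and 10 dpa replicates 1, 6 and 10, and for *TGFB1* (−0.59) 18 dpa replicates 4 and 5 and 10 dpa replicates 1, 6, 8, 9 and 10. The replicate block also took the calls of *SLC2A1* and *NDUFB1* and no other, and a fit of all arrays those of *CILP* and *NDUFB1*. In lists, 2 cartilage genes in place of 1 were lower without 10 dpa replicate 3, and 3 ribosome biogenesis genes in place of 1 were higher without 18 dpa replicate 2 or 10 dpa replicate 5. The causes were not tested.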

Other observations

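The sterol synthesis and interferon response lists held no call over all 20 arrays but had medians of opposite sign in the code series. For the 19 sterol synthesis genes, which make cholesterol, the median difference between 18 and 10 dpa was 0.24 in EF-coded and −0.11 in A-coded samples. Their mean level in EF-coded samples ran from 6.80 to 7.12 at 18 dpa and from 6.58 to 6.86 at 10 dpa, and in A-coded samples from 6.91 to 7.26 at 18 dpa and from 7.05 to 7.97 at 10 dpa. For the 9 genes of the interferon response, an antiviral program, the median difference was 0.10 in EF-coded and −0.46 in A-coded samples. Their mean level in EF-coded samples ran from 7.23 to 7.55 at 18 dpa and from 6.80 to 7.62 at 10 dpa, and in A-coded samples from 7.03 to 7.89 at 18 dpa and from 7.49 to 8.31 at 10 dpa. At 10 dpa the code series were apart for the sterol list and overlapped for the interferon list. The disparity of the list medians was not tested.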
